A study of Mus musculus with 24 samples.

Results

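*Malat1*, *Neat1*, *Rmrp*, *Rpph1*, *Rn7sk* and *Terc* encode structural or nuclear RNAs that act without being translated, most of them abundant and *Terc* scarce here. They were picked by name and function, with earlier results of these data known. Of the 6 genes, 5 had a row among the 24456 genes of the count tables, and *Rn7sk*, the RNA that holds the elongation factor P-TEFb inactive, was not analysed here. The other 5 all passed the filter on low counts and were tested among 17170 genes.

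The RNAs were measured in total testis RNA from mice of day 20, 22, 24 or 26 post-partum (PP), when the first wave of spermatogenesis leaves meiosis and haploid spermatids accumulate. The mice were wild-type (WT) or homozygous for an *Atad2* knockout (KO) allele, in which a *lacZ* cassette is spliced to the gene and leaves a fusion protein without function. ATAD2 is a chromatin factor with a bromodomain and an ATPase domain, and the allele is carried by somatic as well as germ cells. At each of days 20 and 22 there were 4 WT and 4 KO libraries, and at each of days 24 and 26 there were 2 of each genotype. For the youngest mice the study's methods count fewer replicates than the labels, which are followed here. The labels name whole testis as the source, although their extraction text also speaks of purified spermatogenic fractions. Libraries are named by genotype, day and replicate (WT_d20_2). The comparison asked whether loss of ATAD2 altered the level of these RNAs at any day. The study calls its replicates biological, but the labels only number them, and p-values measure the spread between these libraries.

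Between 10709667 and 19491935 read pairs were assigned to genes in a library. *Atad2* itself fell by 1.37 on the log2 scale in KO over the 4 days (SE 0.112, adjusted p = 1.23e-07 by edgeR's quasi-likelihood test). Markers of germ cells and of somatic cells were both present: all 10 pachytene spermatocyte markers, all 10 Sertoli cell markers and all 7 Leydig cell markers were tested. Of 11 round spermatid markers 9 were called higher in KO at day 20, with sums of 55.6 to 189.6 CPM (the counts of a gene scaled to library size and composition) against 23.2 to 67.2 CPM in WT, where 2.98% of all genes were called higher. With day 20 fitted alone, 5 genes were called in all and 0 of them were higher in KO. At day 22, 1 of the 11 and 4 of 10 elongating spermatid markers were called higher, beside 1.26% of all genes. Of 7 endothelial markers 1 was called lower there, beside 1.25% of all genes. In the mean of the days 6 of these 11 and 9 of 10 elongating spermatid markers were called higher, and 2 of 7 peritubular and 2 of 7 endothelial markers lower. The library WT_d20_2 stood apart before any of the comparisons. It had the fewest gene counts, the largest share of read pairs with several alignments (13.7% against 4.74% to 9.16% in the others) and the highest CPM of *Malat1*, *Rmrp*, *Rpph1* and *Terc*, so values that change direction or call without it are given with and without it. KO_d22_4 lay at the other end, with the lowest share of such pairs and the lowest CPM of the same 4 RNAs.

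These RNAs work in separate machines. *Rpph1* is the catalytic RNA of RNase P, which trims the 5′ end of precursor transfer RNAs, and *Rmrp* is the related RNA of RNase MRP, which cuts precursor ribosomal RNA. Both are made by RNA polymerase III and share most of their protein subunits. *Terc* carries the template from which telomerase adds telomere repeats. *Malat1* is a long RNA of nuclear speckles, where splicing factors gather, and *Neat1* is the scaffold of paraspeckles, nuclear bodies built around the RNA-binding proteins SFPQ, NONO and PSPC1.

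All 5 genes lie on the minus strand of the mm10 build (GENCODE M21 annotation). *Rmrp* spans chr4:43492783-43493063 and its first bases overlap *Ccdc107*, which is read from the other strand. *Rpph1* spans chr14:50807449-50807767, begins 74 bases from the divergent gene *Parp2*, and overlaps a GENCODE model of *Ccnb1ip1* on its own strand. *Terc* spans chr3:96414437-96414859. *Malat1* (chr19:5795690-5802672) and *Neat1* (chr19:5824708-5845478) are neighbours, and *Frmd8* lies 4224 bases beyond *Neat1*. The exons of the 5 genes cover 281 bases for *Rmrp*, 319 for *Rpph1*, 423 for *Terc*, 6983 for *Malat1* and 20771 for *Neat1*.

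The sequences of the short members are shown because reads of 75 bases must tell them apart from each other and from other genes. They are GENCODE M21 transcripts, written as DNA. In *Rmrp* (all 271 bases of the ribozyme model) and *Rpph1* (bases 1 to 300), capitals mark the stretches of 8 or more bases that the 2 RNAs share. There are 3 over their full length, and the one of 8 bases falls at bases 311 to 318 of *Rpph1*, past the bases shown:
Rmrp: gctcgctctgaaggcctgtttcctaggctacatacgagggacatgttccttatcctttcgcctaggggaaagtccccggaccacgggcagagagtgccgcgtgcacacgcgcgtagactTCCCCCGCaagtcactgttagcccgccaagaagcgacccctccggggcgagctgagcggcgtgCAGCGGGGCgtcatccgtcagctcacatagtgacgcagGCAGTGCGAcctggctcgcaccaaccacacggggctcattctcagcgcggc
Rpph1: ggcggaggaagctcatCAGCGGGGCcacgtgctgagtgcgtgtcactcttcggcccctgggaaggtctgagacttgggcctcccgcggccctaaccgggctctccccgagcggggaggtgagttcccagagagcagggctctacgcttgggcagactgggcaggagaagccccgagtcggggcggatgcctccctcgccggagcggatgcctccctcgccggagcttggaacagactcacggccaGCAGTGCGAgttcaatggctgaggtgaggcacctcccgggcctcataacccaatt
The longest shared stretch was 9 bases, far below the length of a read. In *Terc* (bases 1 to 120), capitals mark the 9 bases, 28 to 36, that are complementary to the telomere repeat and hold the template:
Terc: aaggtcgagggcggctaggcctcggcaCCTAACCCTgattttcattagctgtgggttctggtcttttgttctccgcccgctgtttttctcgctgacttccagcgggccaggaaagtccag
No window of 75 bases in *Terc* occurred in a transcript of another gene. For *Rmrp*, 50 of 207 such windows also lay in *Ccdc107*, on the other strand, and for *Rpph1*, 159 of 245 lay in the *Ccnb1ip1* model. *Ccnb1ip1* reached at most 26.5 CPM in any library and *Ccdc107* at most 8.61 CPM, both far below the RNAs they overlap.

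Together the 5 RNAs took 0.916% to 4.90% of the gene counts of a library (median 1.60%). *Rpph1* ranked between 1 and 6 among all genes by count and *Malat1* between 3 and 6. *Rmrp* ranked between 10 and 129, *Neat1* between 391 and 2163, and *Terc* between 7539 and 14531. Levels of different RNAs are comparable only per length. By median CPM per kilobase of exon, *Rpph1* was the first of 16489 genes at 25059, *Rmrp* the second at 5957 and *Malat1* the eighth at 889. *Terc* (11.05) and *Neat1* (9.14) were far below, at ranks 4621 and 5362. *Terc* was counted by only 16 to 206 read pairs a library, so its values carry the largest counting error.

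The RNAs also differed in how well libraries of 1 group agreed. The SD within groups, on the log2 CPM scale, was 0.26 for *Malat1*, 0.45 for *Neat1*, 0.53 for *Rmrp*, 0.59 for *Rpph1* and 0.76 for *Terc*, against a median of 0.27 over all genes tested and 0.20 over the 1000 most abundant. *Rpph1* varied more than 99.3% of those 1000 genes and *Rmrp* more than 98.9%. The highest library exceeded the lowest by 2.52-fold for *Malat1*, 3.43-fold for *Neat1*, 10.1-fold for *Rpph1*, 10.3-fold for *Rmrp* and 20.2-fold for *Terc*. The 3 short RNAs had the wider scatter and so the wider confidence intervals below.

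**Figure D1:**
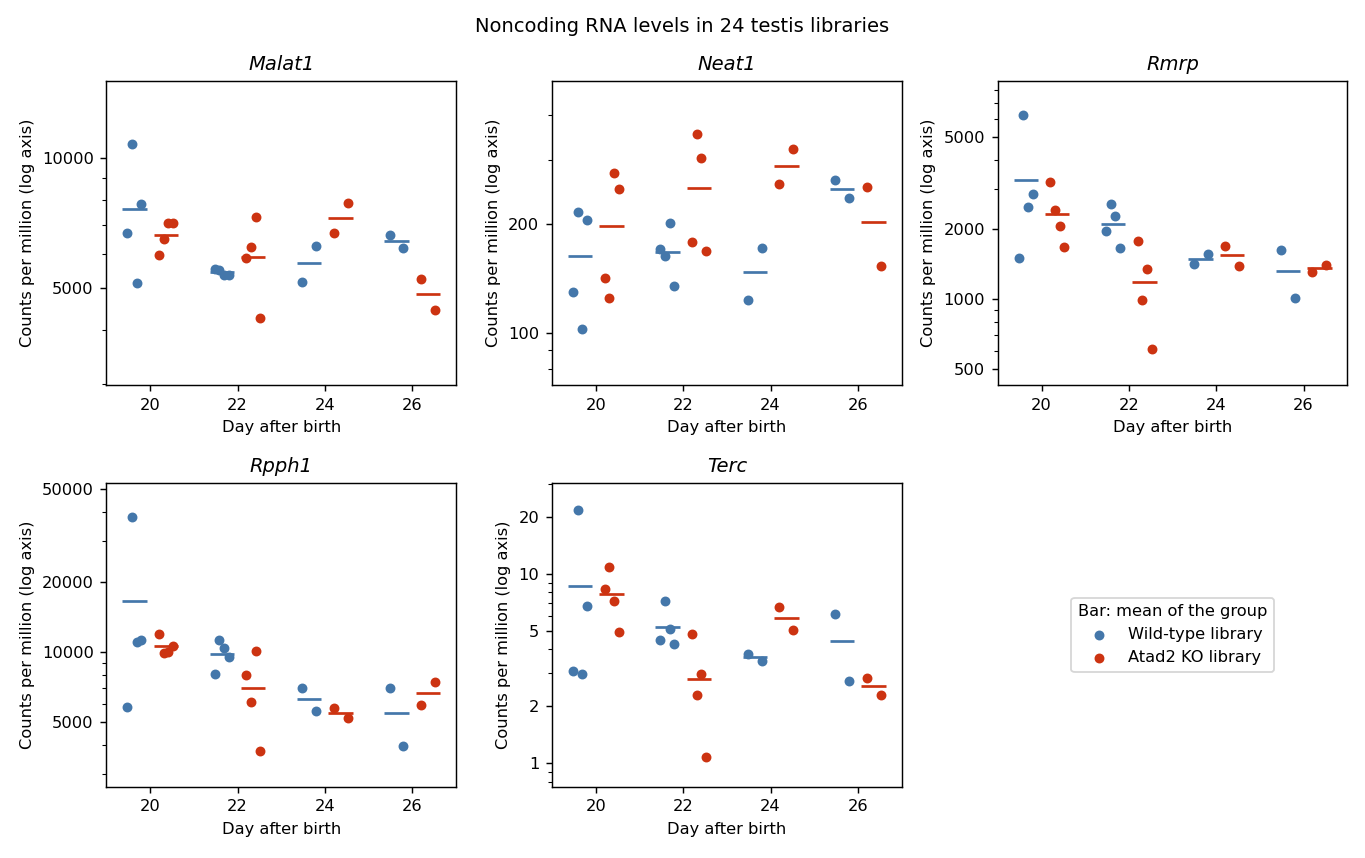
Level (CPM, log axis) of each RNA in each of the 24 libraries, by day and genotype, with a bar at the mean of each group. The short RNAs *Rmrp*, *Rpph1* and *Terc* scatter most, and WT_d20_2 is the top wild-type point of day 20 for each of them, with *Rpph1* at 38034.

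None of the 5 RNAs was called changed between KO and WT in the fit over all libraries. The call was an adjusted p under 0.05 by edgeR's quasi-likelihood test over all 17170 genes, and 0 of 5 passed at each of the 4 days and in the mean of the days. The same test called 3.34% of all genes at day 20, 2.51% at day 22, 0.0874% at day 24, 0.0466% at day 26 and 7.08% in the mean of the days. Leaving out single libraries moved these calls to between 151 and 780 genes at day 20, 60 and 858 at day 22, 0 and 24 at day 24, 0 and 103 at day 26, and 302 and 1737 in the mean. By direction, 2.98% of genes were higher and 0.361% lower at day 20, 1.26% and 1.25% at day 22, 0.0175% and 0.0699% at day 24, and 3.52% and 3.56% in the mean, while all calls of day 26 were lower. At an unadjusted p under 0.05, *Neat1* passed at day 24 (with 898 of the 17170 genes) and in the mean of the days (with 3982), and *Rmrp* at day 22 (with 2505). DESeq2 called 0 of 5 in each of these comparisons as well. In these bulk samples, fewer cells of a type and less RNA per cell cannot be told apart.

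*Rpph1*, the RNase P RNA, spread over 6.55-fold among the WT libraries of day 20. Its level was 5808, 38034, 11072 and 11253 CPM in the WT libraries and 11924, 9917, 10029.7 and 10596.5 CPM in the KO libraries. The KO libraries lay close together and inside the range of the WT libraries, which was set by WT_d20_1 and WT_d20_2. The log2 fold change of KO over WT was -0.64 (95% interval -1.47 to 0.19, adjusted p = 0.580 by edgeR), and without WT_d20_2 it was 0.16, in the other direction. At day 22 the KO libraries held 7946, 6123, 10051 and 3770 CPM and the WT libraries 8042, 11257, 10424 and 9552 CPM. The log2 fold change there was -0.49 (95% interval -1.32 to 0.33, adjusted p = 0.687), and the groups overlapped; it was -0.29 without KO_d22_4. It was -0.19 at day 24 and 0.29 at day 26, neither called. The former was -0.016 without WT_d24_1 and -0.33 without WT_d24_2, and the latter -0.061 without WT_d26_2 and 0.78 without WT_d26_1.

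*Rmrp*, the RNase MRP RNA, showed its lowest values in KO at day 22. Its level was 1773, 995, 1351 and 608 CPM in KO and 1964, 2567, 2284 and 1665 CPM in WT. KO_d22_1 was higher than 1 of the WT libraries and the other KO libraries were below all of them. The log2 fold change was -0.84 (SE 0.346, 95% interval -1.57 to -0.12, unadjusted p = 0.0246, adjusted p = 0.235 by edgeR), and it did not pass; over the alternatives the adjusted p ranged from 0.0911 to 0.514. At day 20 it was -0.49 with all libraries and 0.01 without WT_d20_2. At days 24 and 26 the values were 0.05 and 0.04, with 95% intervals from -0.96 to 1.07 and from -0.97 to 1.06, wide because each group held 2 libraries, and leaving out single libraries moved them from -0.093 to 0.18 and from -0.26 to 0.44.

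*Terc*, the telomerase RNA, was also low in KO at day 22. It was counted 80, 38, 45 and 16 times in the KO libraries of that day and 64, 86, 88 and 83 times in the WT libraries, or 4.84, 2.28, 2.97 and 1.07 CPM against 4.51, 7.19, 5.13 and 4.24 CPM. Only KO_d22_1 reached the WT range. The log2 fold change was -0.90 (SE 0.534, 95% interval -2.02 to 0.22, adjusted p = 0.506 by edgeR). At day 24 both KO libraries (6.70 and 5.03 CPM) were above both WT libraries (3.79 and 3.46 CPM), a log2 fold change of 0.69 (unadjusted p = 0.362 by edgeR). Such separation of 2 libraries from 2 was common, in 44.0% of all genes at day 24 and 59.0% at day 26. At day 26 the log2 fold change was -0.81, and the groups overlapped; it was -0.085 without WT_d26_1 and -1.26 without WT_d26_2. At day 20 it was -0.10 with all libraries and 0.87 without WT_d20_2.

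*Malat1* was the steadiest of the RNAs of the 5 by its spread within groups. At day 22 its WT libraries held 5533, 5521, 5356 and 5381 CPM, and its KO libraries 5883, 6222, 7306 and 4269.9 CPM. The 4 WT libraries were nearly equal and the KO libraries lay on both sides of them. Its log2 fold changes were -0.20 (0.0043 without WT_d20_2), 0.12, 0.35 and -0.40 at days 20, 22, 24 and 26, and -0.03 in the mean of the days (SE 0.109, 95% interval -0.26 to 0.19, and 0.026 without WT_d20_2), which bounds a shared change to between 0.836-fold and 1.14-fold. The value of day 22 was 0.0028 without KO_d22_3 and 0.25 without KO_d22_4, that of day 24 was 0.22 without WT_d24_1 and that of day 26 was -0.27 without KO_d26_2. At day 24 the KO libraries (6707 and 7871 CPM) were above the WT libraries (5168 and 6269 CPM), and at day 26 they were below (5263 and 4464 against 6655 and 6187 CPM). With day 26 fitted on its own, the fall passed (-0.39, adjusted p = 0.0424) as 1 of 2104 genes called there, against 8 in the fit over all libraries, and it did not pass in the latter (adjusted p = 0.566).

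*Neat1* had higher group means in KO at days 20, 22 and 24 and a lower one at day 26. At day 20 it held 142, 125, 276 and 249 CPM in KO and 130.1, 215, 103 and 205 CPM in WT. At day 22 the values were 179, 353, 304 and 169 CPM in KO and 171, 163, 201.1 and 135 CPM in WT. In both days 2 KO libraries were above every WT library and the other 2 lay among them. At day 24 both KO libraries (257 and 321 CPM) exceeded both WT libraries (123 and 171 CPM), and at day 26 the values were 253 and 153 in KO and 265 and 236 in WT, which overlapped. The log2 fold changes were 0.28, 0.59, 0.97 and -0.30, of which the first was 0.086 without KO_d20_3 and 0.45 without KO_d20_2, the second 0.38 without KO_d22_2, and the last 0.035 without KO_d26_2 and -0.68 without KO_d26_1. In the mean of the days *Neat1* was 0.38 higher in KO (SE 0.179, 95% interval 0.01 to 0.76), with an unadjusted p of 0.0445 and an adjusted p of 0.202 by edgeR, so it was not called; the adjusted p ranged from 0.129 to 0.411 over the alternatives. The KO libraries did not overlap the WT libraries for 3 of the 5 RNAs at day 24 and for *Malat1* at day 26, where 44.0% and 59.0% of all genes separated. The genotypes overlapped for all 5 RNAs at days 20 and 22, where 4.71% and 8.09% of all genes separated.

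**Figure D2:**
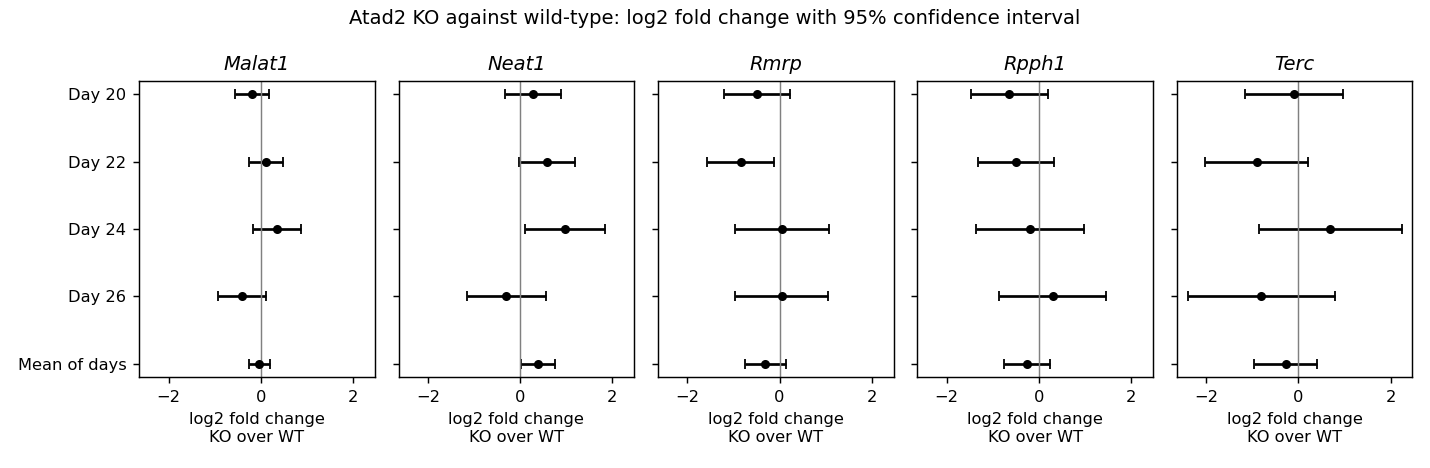
log2 fold change of KO over WT for each RNA at each day and in the mean of the days, with 95% confidence intervals from the edgeR fit. The intervals of *Malat1* are the narrowest and those of *Terc* the widest, and no value passes an adjusted p of 0.05.

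No RNA was called for a KO effect that differed between days. The joint test of the 3 differences from day 20 gave adjusted p-values from 0.736 for *Malat1* to 0.965 for *Rpph1* by edgeR, where 0.00582% of all genes, a single gene, were called; leaving out single libraries gave 0 to 140 genes, the most without KO_d20_2.

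The ratio of 2 RNAs within a library does not depend on how libraries are scaled. *Malat1* exceeded *Neat1* by 17.6- to 52.1-fold in counts. In WT the log2 ratio was 5.69, 5.64, 5.64 and 5.25 at day 20 and in KO 5.39, 5.70, 4.68 and 4.83. At day 24 it was 5.39 and 5.19 in WT and 4.70 and 4.62 in KO, with no overlap. At day 22 it was 5.02, 5.08, 4.73 and 5.32 in WT and 5.04, 4.14, 4.59 and 4.66 in KO, and at day 26 it was 4.65 and 4.71 in WT and 4.38 and 4.86 in KO. The genotypes overlapped at days 20, 22 and 26. The difference of KO from WT was -0.41, -0.43, -0.63 and -0.06 at days 20, 22, 24 and 26, a mean of -0.38 (exact two-sided permutation test with labels exchanged within days, 176400 relabellings, p = 0.00628, adjusted p = 0.0126 over the 2 ratios). Leaving out each library in turn kept the mean between -0.44 and -0.32, with exact p-values from 0.00118 to 0.0190. The ratio of *Rmrp* to *Rpph1* had a mean difference of -0.11 (exact permutation p = 0.325), and ran from 0.134 to 0.293 over the libraries.

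Of the 2 RNAs in the first ratio, *Neat1* had the larger log2 fold change (0.38 against -0.03 for *Malat1*), and markers of Leydig cells, the androgen-producing cells between the tubules, are given beside it. The 7 Leydig markers together reached 265 to 382 CPM in WT and 280.0 to 689 CPM in KO at day 20, and 616 to 776 and 391 to 935 CPM at day 22. At day 24 they were at 506 to 708 CPM in WT and 898 to 1068 CPM in KO, and at day 26 at 1109 to 1825 and 893 to 1013 CPM. Their median log2 fold change of KO over WT was 0.77, 0.50, 0.97 and -0.54 at days 20, 22, 24 and 26, and at these days *Neat1* stood at 0.28, 0.59, 0.97 and -0.30. With single libraries left out, the values of *Neat1* ran from 0.086 to 0.45, from 0.38 to 0.73, from 0.75 to 1.24 and from -0.68 to 0.035. The measure was chosen after the data were seen. Of the 7 markers, 1 was called higher in KO at day 22 and 1 in the mean of the days, where their median log2 fold change was 0.41, and none was called at days 20, 24 and 26 by edgeR (3, 4 and 1 of the 7 at an unadjusted p under 0.05). *Hsd3b1*, a steroid dehydrogenase gene on the list, stood the other way, at -0.64 at day 22 and -0.35 in the mean (adjusted p of 0.0890 and 0.0825 by edgeR), and was not called. Over the 24 libraries, with group means removed, log2 *Neat1* correlated with the mean log2 level of these markers at r = 0.72 (Spearman's rho = 0.73, r = 0.64 without the 2 libraries farthest from the median), *Malat1* at 0.55, *Rpph1* at 0.42, *Rmrp* at 0.29 and *Terc* at 0.19. These are given as a description, since 1 of the 7 genes, *Lhcgr*, is also among the genes most like *Neat1*. The part of these cells in the difference of the ratio was not tested.

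**Figure D3:**
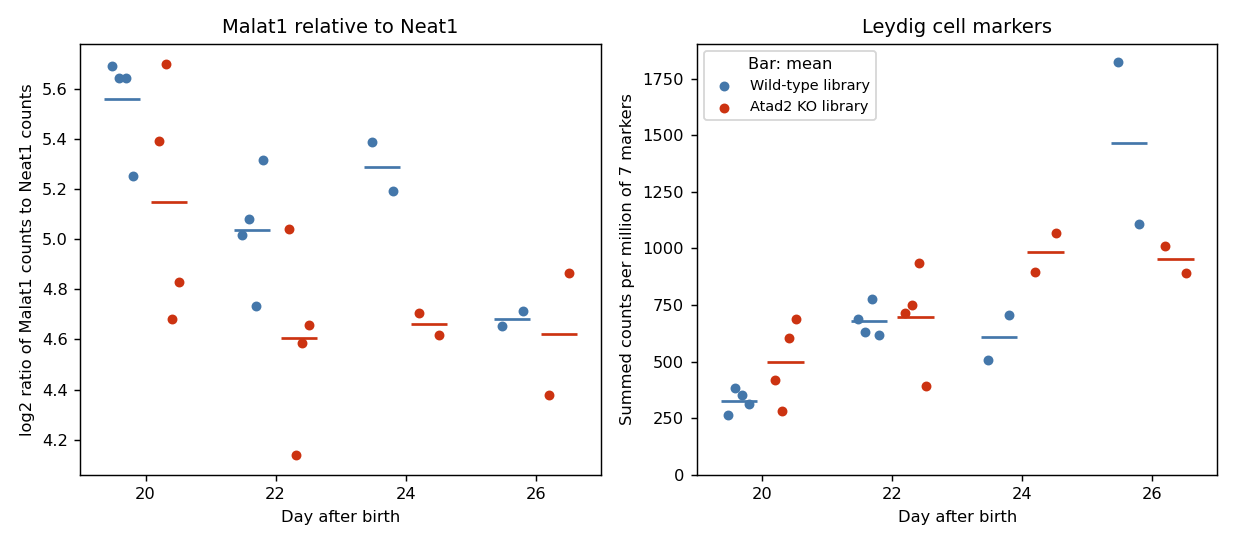
Left, log2 ratio of *Malat1* to *Neat1* counts in each library by day and genotype. Right, summed CPM of 7 Leydig cell markers in the same libraries, with bars at group means; the KO mean of the ratio is below the WT mean at each day, by the least (0.06) at day 26.

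Between days 20 and 26 the RNAs of RNase P and RNase MRP fell in WT. Over the same days all 11 round and all 10 elongating spermatid markers were called higher in WT, beside 24.4% of all genes. Of 9 spermatogonia markers 7 were called lower, beside 18.1% of all genes. The part of changing cell types in the levels of the RNAs was not tested. *Rpph1* was at 6983 and 3933 CPM in the WT libraries of day 26, both below 3 of the 4 WT libraries of day 20, and its log2 fold change was -1.60 (SE 0.522, 95% interval -2.69 to -0.51, adjusted p = 0.0187 by edgeR). *Rmrp* was at 1507, 6242, 2511 and 2844 CPM at day 20 and 1623 and 1012 CPM at day 26, a log2 fold change of -1.31 (SE 0.448, adjusted p = 0.0235). For both, WT_d20_1 was low at day 20, so the days overlapped. These were 2 of the 5 RNAs, in a comparison that called 42.5% of all genes and 18.1% as lower (7292 genes, and 4724 without WT_d26_2). The fall of *Rpph1* was -0.83 without WT_d20_2 (adjusted p = 0.0420) and -1.24 without WT_d26_2, where it did not pass (adjusted p = 0.187). The fall of *Rmrp* did not pass without WT_d20_2 (-0.85, adjusted p = 0.0643) or without WT_d26_2 (-1.01, adjusted p = 0.212). *Malat1* (-0.25, and from -0.43 without WT_d20_3 to -0.076 without WT_d20_2), *Terc* (-0.91, and from -1.63 without WT_d26_1 to 0.024 without WT_d20_2) and *Neat1* (0.62) were not called in WT, although both WT libraries of day 26 were above all 4 of day 20 for *Neat1*.

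In KO none of the 5 RNAs was called between the same days, while 52.2% of all genes were (27.2% higher and 24.9% lower; 8955 genes, and 5829 without KO_d26_2). At an unadjusted p under 0.05, 1 of the 5 passed, beside 9953 of the 17170 genes. *Terc* came closest, with 8.34, 10.9, 7.20 and 4.94 CPM at day 20 and 2.82 and 2.29 CPM at day 26, and a log2 fold change of -1.62 (SE 0.687, adjusted p = 0.0555 by edgeR). It was called by DESeq2 (-1.53, adjusted p = 0.0291), with all read pairs as library size (-1.51, adjusted p = 0.0408) and without WT_d20_2 (-1.62, adjusted p = 0.00670). Over all alternatives its adjusted p ranged from 0.00670 to 0.226. *Malat1*, *Rmrp* and *Rpph1* had log2 fold changes of -0.45, -0.78 and -0.67, and *Malat1* passed without WT_d20_2 (-0.46, adjusted p = 0.0312) and without WT_d20_3 (-0.47, adjusted p = 0.0435). For these 3 and for *Terc*, both KO libraries of day 26 were below all 4 of day 20, as for 70.0% of all genes in one direction or the other; in WT 50.4% of genes separated. The change with age was not shown to differ between genotypes for any of the 5 (adjusted p from 0.707 to 0.886 by edgeR, 0% of all genes called, and 1857 genes at an unadjusted p under 0.05). Leaving out single libraries gave 0 to 326 genes for this difference, the most without KO_d20_2, and DESeq2 called 215.

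**Figure D4:**
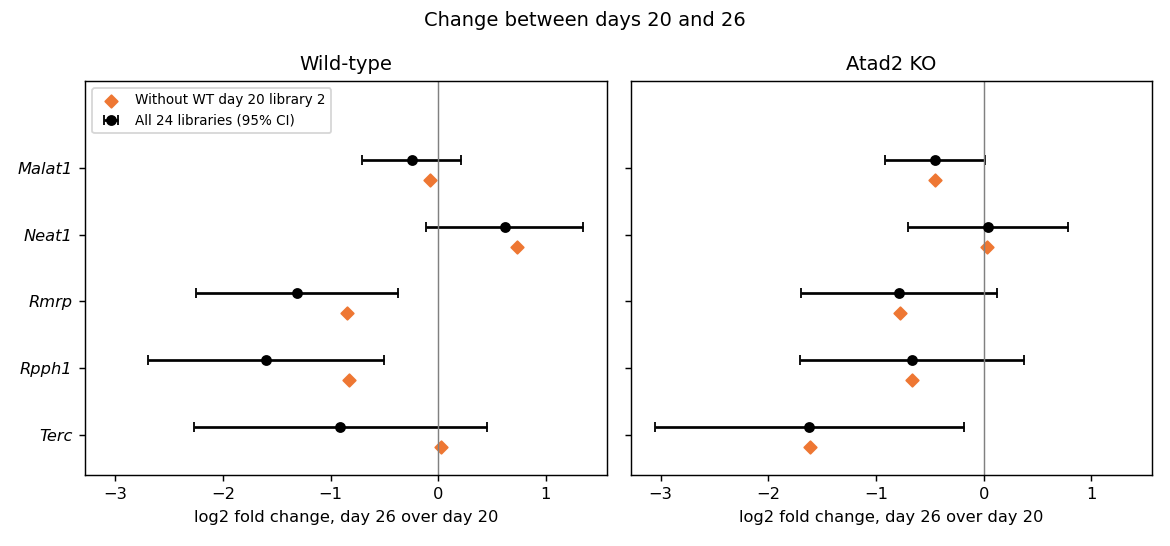
log2 fold change of day 26 over day 20 for each RNA in WT (left) and KO (right), with 95% confidence intervals, and the value without WT_d20_2 as a diamond. Without that library the WT falls of *Rmrp* and *Rpph1* shrink to -0.85 and -0.83, and *Terc* in WT goes to 0.02.

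The 3 short RNAs rose and fell together from library to library. With group means removed, log2 *Rmrp* correlated with *Terc* at r = 0.92 and with *Rpph1* at r = 0.89, and *Rpph1* with *Terc* at r = 0.84 (24 libraries, adjusted p of 0.000700, 0.00263 and 0.0150 over 35 relations by permutation within groups; rho = 0.91, 0.79 and 0.70). Without the 2 libraries farthest from the median the values were 0.85, 0.78 and 0.68. *Malat1* and *Neat1* correlated at r = 0.75 (rho = 0.82). None of the 6 relations between a long and a short RNA passed. *Malat1* with the short RNAs gave r from 0.56 to 0.70 (adjusted p from 0.0670 to 0.163), and *Neat1* gave 0.18 with *Rmrp* (adjusted p = 0.626).

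The level of the short RNAs moved with the share of read pairs that had several alignments. The correlation with that share was r = 0.94 for *Rpph1* (rho = 0.84, r = 0.92 without the 2 farthest libraries, permutation p = 1e-05, the smallest that 100000 permutations can give), 0.89 for *Rmrp* (0.79 without the 2) and 0.82 for *Terc* (0.64 without the 2). For *Malat1* it was 0.64, and 0.24 without WT_d20_2 and KO_d22_4, and for *Neat1* 0.35. A measure chosen after the data were seen, the share of gene counts on the other genes with under 500 bases of exon, ran from 0.179% to 0.882% and gave r = 0.93 for *Rmrp*, 0.91 for *Rpph1* and 0.92 for *Terc*. At day 20 the share ran from 0.273% to 0.882% in WT and from 0.318% to 0.427% in KO. At day 22 it ran from 0.290% to 0.420% in WT and from 0.179%, in KO_d22_4, to 0.386% in KO, so the genotypes overlapped at both days. At day 26 the share ran from 0.264% to 0.332% in WT and from 0.301% to 0.323% in KO. Its part in the KO and WT values of these days and in the change with age was not tested.

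**Figure D5:**
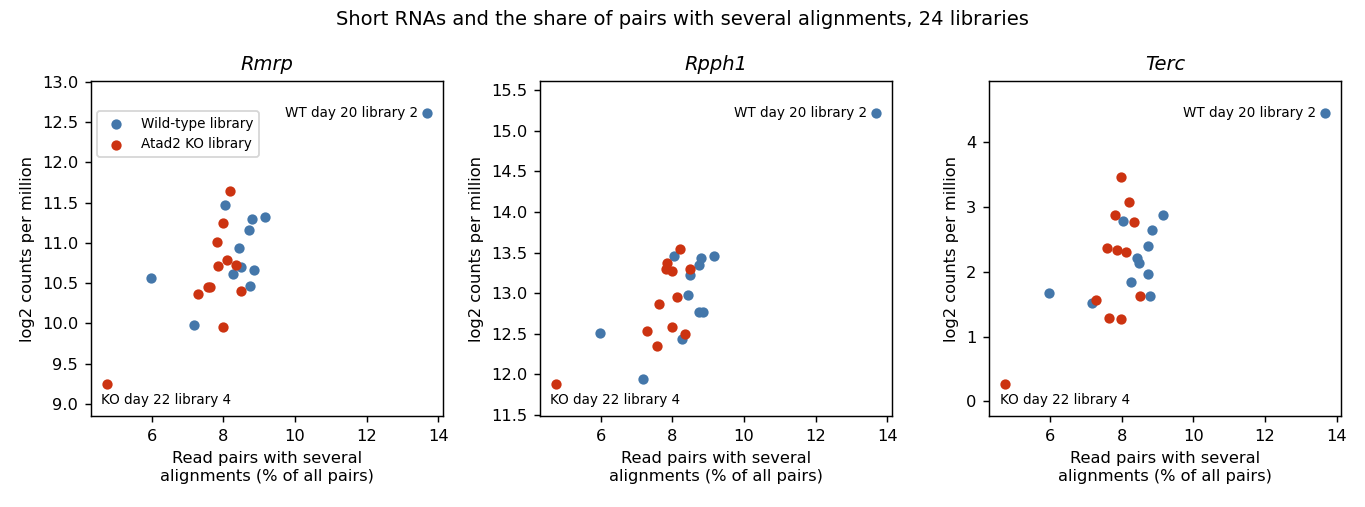
log2 CPM of *Rmrp*, *Rpph1* and *Terc* in each library against the percent of read pairs with several alignments. WT_d20_2 (13.7%) and KO_d22_4 (4.74%) are the extremes of both axes for all 3 RNAs.

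The genes most like each RNA over the 24 libraries differed between the long and the short ones. By Pearson's r of log2 CPM, the 3 nearest to *Rmrp* were the ribosomal protein genes *Rplp1* (0.97), *Rpl15* (0.94) and *Rps18* (0.94), and those nearest to *Terc* were *Rps10* (0.92), *Rps16* (0.92) and *Rpl37a* (0.92). *Rpph1* was followed by the histone gene *Hist1h2aa* (0.93) and *Rpl10a* (0.92). *Malat1* was nearest to *Snx10* (0.83), *Fkbp14* (0.82) and *C77370* (0.82). *Neat1* was nearest to *Cyp4f14* (0.84), *Cml5* (0.78) and *Lhcgr* (0.78), the luteinizing hormone receptor of Leydig cells. These are descriptions over libraries that differ in depth and in the level of short RNAs.

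The RNase P RNA has near copies in the genome, and these were counted in some libraries only. *Rprl1* (chr6:69326844-69327170), *Rprl2* (chr3:22251374-22251663) and *Rprl3* (chr8:3803069-3803358) are annotated as ribozymes like *Rpph1*. Over bases 1 to 204 of *Rpph1* the 3 were identical at 90.7%, 93.1% and 94.1% of aligned bases, and none held a full window of 75 bases of it. The longest common run, 37 bases with *Rprl3*, is shown in capitals within bases 89 to 165 of each:
Rpph1: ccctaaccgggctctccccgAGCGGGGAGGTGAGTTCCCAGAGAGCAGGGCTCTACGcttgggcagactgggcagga
Rprl3: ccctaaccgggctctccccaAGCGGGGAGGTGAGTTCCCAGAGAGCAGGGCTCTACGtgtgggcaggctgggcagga
In 5 libraries, WT_d20_1, WT_d20_2, WT_d22_1, WT_d24_1 and WT_d26_2, the 3 copies together had 963, 5085, 1530, 2175 and 1096 counts. In the other 19 libraries they had 0 to 7, and in the 12 KO libraries 0 to 2. Within the 5 libraries the counts were 1.30% to 1.999% of those of *Rpph1*, although *Rpph1* itself varied widely there (54822 to 361198 counts), and 5.02% to 9.56% of those of *Rmrp*. Of all 24456 genes only these 3 were higher in each of the 5 libraries than in any of the 19, and 1, *Akr1c13*, was lower. What sets the 5 libraries apart was not tested. Adding the counts of the copies to *Rpph1* left every call on the 5 RNAs as it was. Leaving out the 5 libraries reduced the falls with age in WT to -0.70 for *Rpph1* and -0.74 for *Rmrp*, with WT_d26_1 then alone in its group.

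Among the protein partners of the RNAs, 1 gene was called between KO and WT, in the mean of the days, where 7.08% of all genes were called. Of the 11 protein subunits of RNase P and RNase MRP, 0 were called at any day or in the mean of the days (median log2 fold change -0.0041 in the mean, against 0.0050 over all genes), and the 2 with the lowest p were *Pop5* at day 20 (0.48, adjusted p = 0.291) and *Rpp25* in the mean (-0.32, adjusted p = 0.317). All 8 genes of the 7SK particle and P-TEFb were uncalled, among them *Hexim2* (0.23 in the mean, adjusted p = 0.206) and *Mepce* (0.37 at day 26, adjusted p = 0.466). Of 14 paraspeckle proteins and 12 speckle proteins, 0 were called, with *Hnrnpm* (-0.25) at day 20, *Hnrnph3* (0.22) at day 22, *Srsf1* (-0.28) at day 26 and *Pnn* (-0.21) at day 20 having the lowest p. Of 23 genes for RNA polymerase III and its promoter factors 0 were called, with *Snapc4* at 0.29 at day 22 and *Snapc5* at -0.29 at day 20. The gene called was *Dkc1*, the pseudouridine synthase that binds and stabilises *Terc*. It fell by 0.32 on the log2 scale in the mean of the days (SE 0.0820, adjusted p = 0.0260 by edgeR), the only call among 17 telomerase and shelterin genes.

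Between days 20 and 26 in WT, partner genes were called in each of these lists. Among the RNase P and MRP proteins 4 of 11 fell and 0 rose (median log2 fold change -0.30, against -0.04 over all genes), led by *Pop1* (-0.88, adjusted p = 0.00361) and *Pop7* (-0.74, adjusted p = 0.0142). Among the polymerase III genes 10 of 23 fell and 0 rose, led by *Ssb*, the La protein that binds new polymerase III transcripts (-0.91), and *Snapc3* (-0.73). Of the telomerase and shelterin genes 7 of 17 fell, *Pot1a* (-0.88) and *Nhp2* (-0.77) the most, and 1 rose. Of the paraspeckle proteins 5 of 14 fell, *Nono* (-0.76) and *Cpsf6* (-0.56) the most, and of the speckle proteins 2 of 12, *Srsf2* (-0.50) and *Srsf7* (-0.46). In the 7SK list *Ccnt2* fell (-0.90) and *Hexim2* rose (0.78), with 1 gene falling and 3 rising in all. These shares stand beside 18.1% lower and 24.4% higher over all genes. In KO over the same days, 4 of the 11 RNase P and MRP proteins fell and 0 rose (median -0.45). Of the polymerase III genes 8 fell and 4 rose, and of the telomerase and shelterin genes 7 fell and 0 rose. Of the paraspeckle proteins 5 fell and 1 rose, of the speckle proteins 3 and 1, and of the 7SK list 2 and 3. Over all genes 24.9% were lower and 27.2% higher in KO.

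Other noncoding RNAs were uncalled at each single day. Of 20 other nuclear long noncoding RNAs 18 were tested, and in the mean of the days *Rian* fell by 0.54 and *Meg3* by 0.47 on the log2 scale (adjusted p of 0.0269 and 0.0304 by edgeR), both from 1 imprinted cluster, where 3.56% of all genes were called lower. In WT, *Miat* rose (2.14) and *Xist* fell (-1.53) between days 20 and 26, where 1 rose and 8 fell. Of 29 other small structural RNAs 8 were tested, and 6 of the 8 had an unadjusted p under 0.05 at day 20, as had 2141 of the 17170 genes. Beside *Rprl1* to *Rprl3*, *Vaultrc5*, *Rnu11*, *Rnu12*, *Scarna6* and *Scarna13* had log2 fold changes of KO over WT of -1.41, -1.25, -1.66, -0.20 and -1.14 at day 20. Without WT_d20_2 these were -0.60, -0.30, -0.46, 0.46 and -0.41 (unadjusted p from 0.135 to 0.628 by edgeR). *Scarna13* was called lower in WT with age (-1.52, adjusted p = 0.0360), which was lost without WT_d20_2 (-0.82, adjusted p = 0.120), and *Rprl3* was called in the mean of the days, on the 5 libraries given above.

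Genes next to the 5 RNAs were compared in the same way. Of 10 neighbours with a row 9 were tested, 0 were called between KO and WT, and their log2 fold changes ran from -0.45 to 0.65 (3 passed at an unadjusted p under 0.05). *Parp2*, which shares the upstream region of *Rpph1*, was at 19.7 to 31.0 CPM in WT and 17.8 to 23.8 CPM in KO at day 20. Between days 20 and 26 in WT *Parp2* changed by -0.42 (adjusted p = 0.0566) and *Ccnb1ip1* by -0.47 (adjusted p = 0.118), while *Ttc5* fell (-0.45) and *Frmd8* (0.70) and *Arhgef39* (0.58) rose. *Ccdc107* stood at -0.03.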

How the data were processed

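Counts were measured in 24 testis libraries made with a stranded, ribosomal RNA-depleted total RNA kit and sequenced as pairs of 75 bases. Each library has its own deposited table, which lists unnormalised whole-number counts by gene symbol. Per the study's methods, the authors aligned reads to mm10 with STAR 2.7.11b and counted pairs lying wholly in the exons of 1 gene on the right strand with HTSeq, and pairs with several alignments were dropped, so genes with near copies are under-counted. Tallies of pairs not assigned to a gene (outside exons 45.1% to 58.5%, several alignments 4.74% to 13.7%, ambiguous 0.132% to 0.229% of all pairs) entered neither library sizes nor tests.

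Counts were scaled by edgeR's TMM factors, filtered by filterByExpr (minimum count 10, 17170 genes kept) and fitted with edgeR 4.0.16 (R 4.3.3, limma 3.58.1) as 8 group means over 24 libraries with a robust quasi-likelihood fit. Tests were two-sided with Benjamini-Hochberg adjustment over all genes, and calls were made at an adjusted p under 0.05. SE is the absolute log2 fold change over the square root of F. CPM are TMM-scaled, log2 CPM used a prior count of 2, and ratios added 0.5 counts to each gene. Correlations used values centred on group means and 100000 permutations within groups. DESeq2 1.42.0, other scalings, no filter, a replicate block, each day alone and leaving out each library were alternatives. Python 3.11.15, pandas 2.3.3, numpy 2.4.6, scipy 1.17.1 and matplotlib 3.10.9 were used.

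The members and the lists were chosen with earlier results of these data known. Named genes were all members, their annotated neighbours and, from each list, up to 4 called genes with the lowest adjusted p in KO against WT (or the 2 with the lowest p where none was called) and up to 2 called genes with the largest change with age in WT, plus the 3 tested genes most correlated with each member. *Rprl1* to *Rprl3* and *Akr1c13* were singled out after their values were seen. Read pairs carry no molecular identifiers. Sequences and coordinates are from GENCODE M21. Some genes that this rule selects are not reported here.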

Additional observations from a re-analysis of the deposited data

Results flagged for a closer look

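The *Rpph1* level of 38034 CPM in WT_d20_2 stood apart from the other 3 WT libraries of day 20, its gap to the nearest being 0.831 of the range of the group. The log2 ratio of *Malat1* to *Neat1* in WT_d20_4, 5.25, was below the other 3 of the same group by 0.892 of the range. The limit for 4 libraries is 0.829, and of 28 groups of values looked at, about 1 in 20 passes it by chance. Gaps were taken on the CPM scale for the RNAs, not on log2 CPM, and on the log2 scale for the ratios. The *Malat1* means of KO and WT had a ratio of 1.27 at day 24 and 0.758 at day 26, with no overlap between genotypes at either day and in opposite directions. With 2 libraries a group, 44.0% of all genes separated at day 24 and 59.0% at day 26. The difference between these 2 days was not tested on its own; the joint test over the 4 days gave an adjusted p of 0.736 by edgeR.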

How the results depend on the processing

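Of 1415 values of the 5 RNAs recomputed under alternatives, 1366 kept their direction and side of the threshold, 5 lost the call, 14 gained one and 30 changed sign; the cause was not tested. The libraries with few *Rprl* counts and the addition of those counts to *Rpph1* were chosen after seeing the data. Depth limits *Terc* most (16 to 206 counts). Where a group was left with 1 library, that library is assumed to vary like the others.

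With all read pairs as library size, *Terc* at day 20 was 0.10, *Rmrp* at day 24 -0.055 and *Terc* between days in KO -1.51. With few-*Rprl* libraries alone, *Malat1* at day 20 was 0.0095, *Terc* 0.68, *Rmrp* and *Rpph1* at day 24 -0.00014 and 0.0036, *Rmrp* and *Rpph1* at day 26 -0.23 and -0.031, and between days *Malat1* in WT 0.0195, *Terc* in WT 0.34, *Rmrp* in WT -0.74, *Rpph1* in WT -0.70, *Terc* in KO -1.58 and *Rpph1* in KO -0.62, with 0 RNAs called in WT and 2 in KO. With day 26 alone, *Malat1* was -0.39 and 1 RNA was called. DESeq2 gave *Terc* between days in KO as -1.53, and 1 RNA was called there by DESeq2, with all read pairs and with the block.

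Leaving out each library in turn gave at day 20 *Malat1* -0.34 to 0.0043, *Rmrp* -0.73 to 0.0100, *Rpph1* -0.92 to 0.16 and *Terc* -0.40 to 0.87, at day 24 *Rmrp* -0.093 to 0.18, at day 26 *Neat1* -0.68 to 0.035, *Rmrp* -0.26 to 0.44 and *Rpph1* -0.061 to 0.78, and *Malat1* -0.064 to 0.026 in the mean. Between days in WT it gave *Rmrp* -1.70 to -0.85, *Rpph1* -2.08 to -0.83 and *Terc* -1.63 to 0.024, with 0 to 2 RNAs called. In KO it gave *Malat1* -0.59 to -0.36, *Neat1* -0.39 to 0.33 and *Terc* -1.79 to -1.42, with 0 to 2 called. The difference between genotypes in the change of *Terc* was -1.64 to 0.012.

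The replicate numbers were not taken to pair the libraries. Deviations of same-numbered libraries correlated at 0.0705 to 0.411 at day 20, -0.459 to -0.0254 at day 22, 0.39 at day 24 and 0.416 at day 26, where 2 libraries a group give a single value, so not every pair was above 0.1. With the number as a block, *Terc* was 0.26 at day 20 and -1.95 between days in KO (adjusted p = 0.0237 by edgeR), and the ratio of *Malat1* to *Neat1* kept its difference (exact permutation p = 0.00781). The block gave 9 genes called at day 24, 5 at day 26 and 14 in the joint test.

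Counts over all genes were 573, 431, 15 and 8 at days 20, 22, 24 and 26, 1215 in the mean, 0 for the difference in age change and 1 in the joint test. DESeq2 gave 901, 749, 40, 153, 1827, 215 and 262. All read pairs gave 233 at day 22, 688 in the mean and 0 in the joint test. Each day alone gave 5, 69 and 2104 at days 20, 22 and 26. Few-*Rprl* libraries gave 13, 265 and 33 at days 20, 22 and 24, 4 for the age change and 3 jointly.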

Other observations

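Mitochondrial ribosomal RNA, which took 0.170% to 3.26% of gene counts, was compared with the members too. With group means removed, its relation to *Rpph1* was r = 0.81 over 24 libraries (adjusted p = 0.0218 by permutation within groups, rho = 0.43 with an adjusted p of 0.197, r = 0.61 without the 2 libraries farthest from the median). For *Malat1*, *Rmrp*, *Terc* and *Neat1* r was 0.74, 0.71, 0.67 and 0.57, with adjusted p from 0.0566 to 0.0845, and none of the 5 passed by rank (lowest adjusted p = 0.0920, for *Neat1*). The share of pairs outside exons had r between -0.27 and 0.17 with the 5 RNAs.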
